A study of Mus musculus with 18 samples.

Results

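The genes described here are 8 transcripts of the interleukin-1 and NF-kappaB system: Il1b, Il1rn, Tnfaip2, Tnfaip3, Nfkbia, Nfkbiz, Cxcl2 and Icam1. They were taken by symbol from the 46983 genes of each deposited table, and all 8 were found once. Their RNA was measured in 18 Smart-Seq2 libraries of immune cells sorted from MC38 tumours, which are subcutaneous tumours of a mouse colon carcinoma line. The hosts were female C57BL/6 mice, 6 weeks old at tumour injection, and treatment began at a tumour size near 100 mm3. Every mouse was given anti-PD-1, which blocks an inhibitory receptor of T cells, at 200 µg per mouse, 2 times a week for 2 weeks. One set of mice received that antibody alone. The other set also received D18, an agent known here by its code name, at 25 µg once a week. Each set was sorted into CD8+ T cells, T helper cells (called the CD4 sort here) and dendritic cells, with 3 libraries per sort and treatment. No untreated mice were included, so every difference below is between D18 plus anti-PD-1 and anti-PD-1 alone. The labels do not say how many mice stand behind a library, so p-values measure only the spread between these libraries.

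Interleukin-1 beta is an inflammatory cytokine that myeloid cells make as an inactive precursor, and cleavage by inflammasome caspases releases the active form. Its signal, like that of TNF and of Toll-like receptors, runs through adaptor proteins and kinases to NF-kappaB, a family of transcription factors held in the cytoplasm by inhibitor proteins. NF-kappaB in turn switches on inflammatory genes together with several of its own inhibitors, so that the response limits itself. In tumours these transcripts are best known from macrophages, neutrophils and activated dendritic cells, and lymphocytes also express the inhibitors.

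The members lie at separate places in the mouse genome (mm10, GENCODE gene bounds). Il1b (ENSMUSG00000027398.13) and Il1rn (ENSMUSG00000026981.15) share a chromosome, at chr2:129364570-129371139 on the minus strand and chr2:24336853-24351494 on the plus strand. Tnfaip2 (ENSMUSG00000021281.15) lies at chr12:111442469-111455018 on the plus strand and Nfkbia (ENSMUSG00000021025.7) at chr12:55489410-55492647 on the minus strand. Tnfaip3 (ENSMUSG00000019850.11) lies at chr10:19000910-19015657 and Nfkbiz (ENSMUSG00000035356.16) at chr16:55811375-55838899, both on the minus strand. Cxcl2 (ENSMUSG00000058427.10) lies at chr5:90903871-90905938 and Icam1 (ENSMUSG00000037405.7) at chr9:21015985-21028817, both on the plus strand.

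The region before the transcription start shows how members of this group differ in their potential NF-kappaB sites. RefSeq windows of 250 bases (GRCm38.p6) were matched for 7 of the 8 members. Nfkbiz was not matched. The nonamer GGAATTTCC, searched on both strands, stood in the windows of 4 members, which are Nfkbia, Tnfaip3, Cxcl2 and Icam1. It stood in 0.286% of the 32851 windows of all genes. The degenerate NF-kappaB consensus stood in 3 members, Nfkbia, Tnfaip3 and Cxcl2, and in 3.90% of all windows. In Nfkbia and Cxcl2 both motifs overlap at 1 place. TATAAA, the core of the TATA box, stood in the windows of Il1b and Tnfaip3 and in 12.4% of all windows. It began 31 bases before the start in Il1b and 225 bases before it in Tnfaip3. These motifs were chosen after the sequences had been seen, and a match describes letters, not binding.

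The windows of the 4 genes with the nonamer are shown because they carry the motif matches, with those matches in capitals. Each run reads 5′ to 3′ on the strand of its gene and is the longest stretch of the window without bases that GENCODE annotates as exon. The window of Cxcl2 holds 28 such bases and that of Tnfaip3 110, and the Tnfaip3 run begins at −137. The run of Nfkbia lies at chr12:55492648-55492897 on the minus strand, that of Tnfaip3 at chr10:19015411-19015547 on the minus strand, that of Cxcl2 at chr5:90903649-90903870 on the plus strand and that of Icam1 at chr9:21015690-21015939 on the plus strand.
Nfkbia: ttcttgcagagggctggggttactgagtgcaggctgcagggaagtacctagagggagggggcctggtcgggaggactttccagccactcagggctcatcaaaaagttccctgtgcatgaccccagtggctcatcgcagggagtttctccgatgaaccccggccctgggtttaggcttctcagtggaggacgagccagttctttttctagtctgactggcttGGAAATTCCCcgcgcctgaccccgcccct
Tnfaip3: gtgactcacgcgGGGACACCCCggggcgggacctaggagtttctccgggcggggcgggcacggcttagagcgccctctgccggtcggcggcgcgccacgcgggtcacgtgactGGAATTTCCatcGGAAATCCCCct
Cxcl2: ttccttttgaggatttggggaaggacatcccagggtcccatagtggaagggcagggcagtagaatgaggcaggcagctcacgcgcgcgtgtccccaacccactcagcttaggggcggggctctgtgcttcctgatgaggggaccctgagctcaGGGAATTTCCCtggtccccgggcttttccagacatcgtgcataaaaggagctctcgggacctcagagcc
Icam1: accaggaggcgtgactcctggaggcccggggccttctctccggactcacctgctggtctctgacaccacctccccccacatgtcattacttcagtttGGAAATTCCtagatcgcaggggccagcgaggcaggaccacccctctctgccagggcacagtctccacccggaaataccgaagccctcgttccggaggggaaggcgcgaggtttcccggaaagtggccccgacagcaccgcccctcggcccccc

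The place of the matches differed between the genes. In Nfkbia they began 29 bases before the start and in Cxcl2 97 bases before it. Tnfaip3 held the nonamer at −24, a consensus match at −12 and another at −125. Icam1 held the nonamer at −153 and no consensus match in this window.

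**Figure D1:**
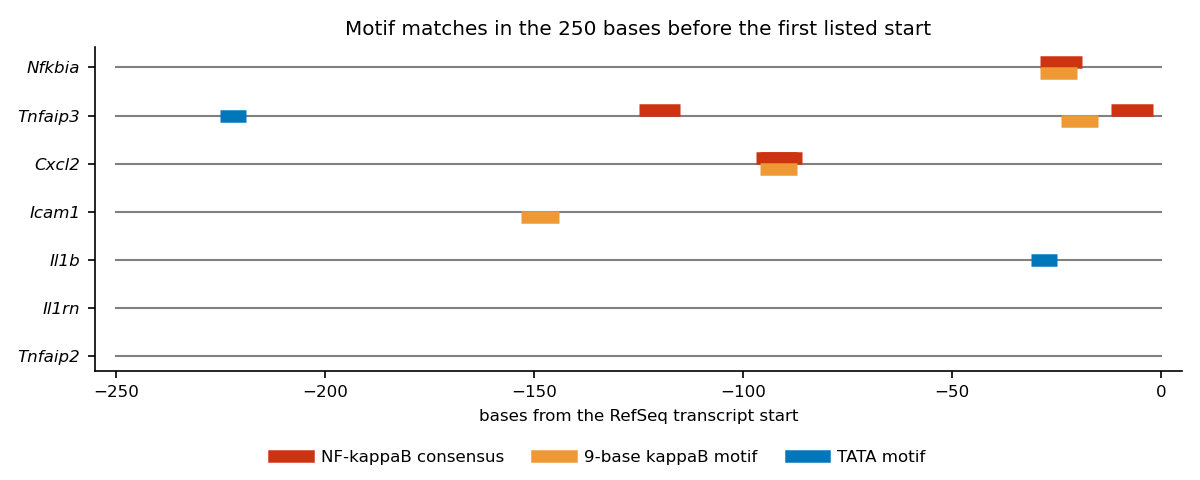
Motif matches on either strand in the 250 bases before the first start that RefSeq lists for each of 7 members; the horizontal axis gives bases from the start, and coloured bars mark the NF-kappaB consensus, the 9-base kappaB motif and the TATA motif. Nfkbia, Tnfaip3, Cxcl2 and Icam1 hold the 9-base motif, and Il1rn and Tnfaip2 hold no match of the 3 motifs.

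Depth and purity set what these libraries can show. The libraries held 11170 to 266392 reads assigned to genes. With 0 reads, up to 3 remain possible (95% confidence, counting error only). Those 3 equal 11.3 CPM (reads scaled to a common library total) at the greatest depth and 269 CPM at the lowest. The total includes mitochondrial reads, which made up 2.39% to 71.9% of a library and lower the CPM of other genes where they are many. In dendritic cell anti-PD-1 replicate 2, at 71.9%, Nfkbia was 171 CPM, and 607 CPM when scaled to nuclear reads alone. Monocyte and macrophage markers had reads in every library, with 5428 to 44167 CPM summed over 14 genes. In the lowest, CD8 D18 replicate 1, Ly6c2 alone gave 219 of the 303 reads, and Csf1r, Adgre1, Fcgr1 and Ms4a7 had 0. Apoe and C1qa had reads in all 18 libraries, so the sorts were not pure by this measure. Of the 14 dendritic cell markers, Flt3 and Clec9a were scarce in the dendritic cell sort, with reads in 3 and 2 of 6 libraries. Irf8, H2-Aa and H2-Ab1 had reads in all 6. The 14 markers summed to 2059 to 6473 CPM in that sort, mostly from H2-Aa and H2-Ab1. T cell markers were not limited to the T cell sorts: dendritic cell libraries numbered 3 held 2883 CPM (anti-PD-1) and 5352 CPM (D18) of the 14 markers, against 0 to 269 CPM in the other 4 of that sort. The T cell libraries numbered 3 held 2600 to 5677 CPM, which spans the values of those dendritic cell libraries. Without the libraries numbered 3, log2 changes in dendritic cells were 1.75 for Il1rn, 3.69 for Tnfaip2, 0.31 for Nfkbia and 1.14 for Cxcl2, none of which passed. Cd3e, a T cell receptor component, had 0 and 1 reads in CD4 anti-PD-1 replicates 1 and 2. The mitochondrial genes mt-Atp6, mt-Co2 and mt-Co3 lacked reads in 6 libraries, which are anti-PD-1 replicates 1 and 2 of each sort, and the other 12 held such reads. This split cannot be told apart from treatment except through anti-PD-1 replicate 3.

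Nfkbia was the most abundant member per transcript length. Its median over the 18 libraries was 363 CPM per kb of exon (range 106 to 837). Cxcl2 followed with a median of 206 CPM per kb (0 to 823), then Nfkbiz with 27.3 (0.896 to 61.2) and Il1b with 17.97 (0 to 188). Medians of Icam1, Tnfaip3, Il1rn and Tnfaip2 were 9.99, 7.25, 5.82 and 3.27 CPM per kb. Ranges of neighbours in this order overlapped throughout. Only Nfkbia and Nfkbiz had reads in all 18 libraries. Tnfaip3 and Cxcl2 had them in 17, Icam1 in 15, Il1rn in 14, Il1b in 12 and Tnfaip2 in 10.

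**Figure D2:**
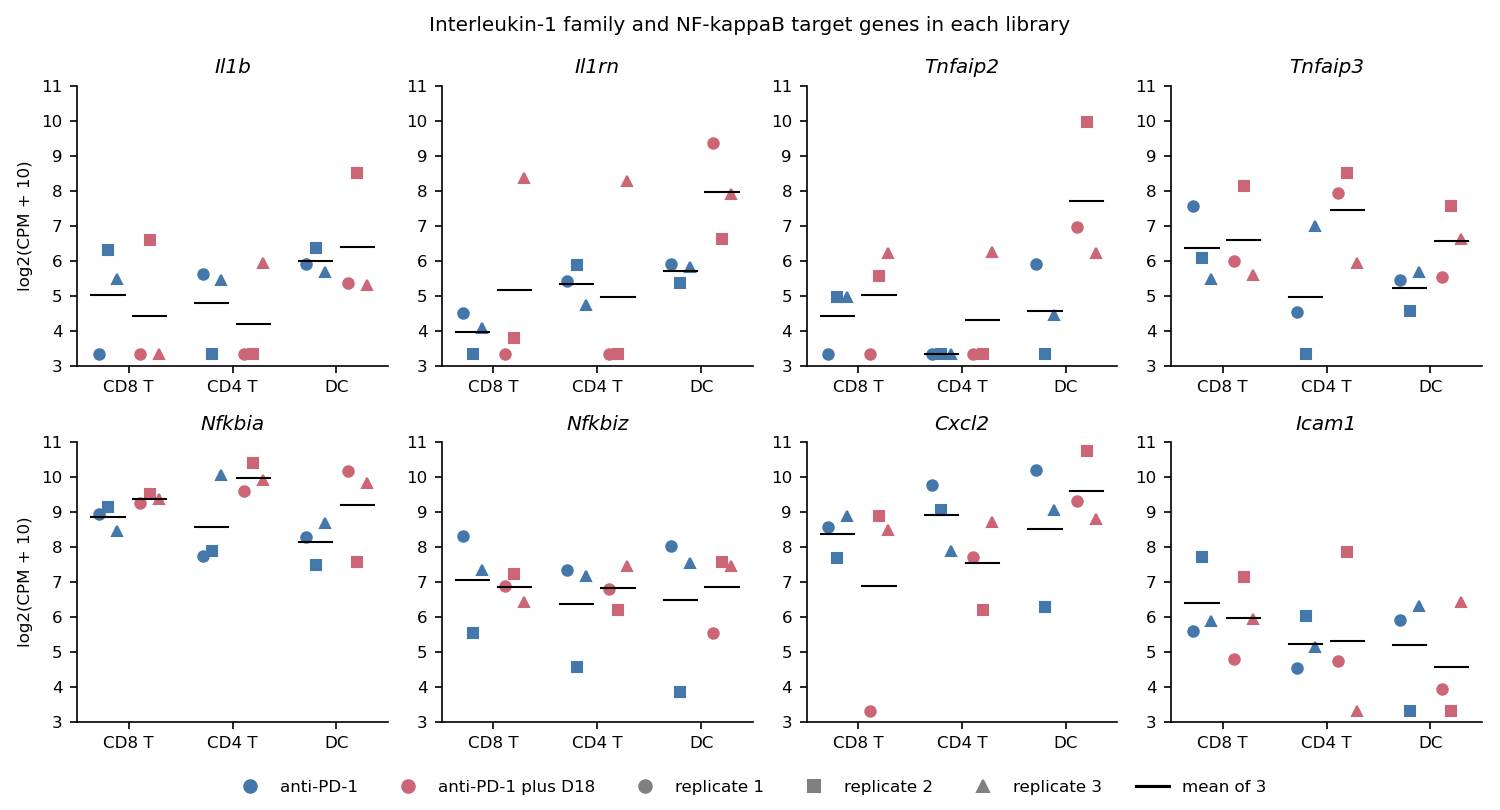
Level of each member in every library as log2(CPM + 10), by sort, with colour for treatment, symbol shape for replicate number and a line at the mean of 3 libraries. Nfkbia and Cxcl2 stand highest in all 3 sorts, and Il1rn has 4 libraries far above its others, all of them with D18.

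Changes with D18 were tested by limma on log2(normalised reads + 1) for genes whose mean in the sort reached 10 normalised reads. Normalised reads are reads divided by the library's size factor. That left 4 members in CD8+ T cells (Tnfaip3, Nfkbia, Nfkbiz, Cxcl2), 2 in the CD4 sort (Nfkbia, Cxcl2) and 4 in dendritic cells (Il1rn, Tnfaip2, Nfkbia, Cxcl2). Il1b and Icam1 were too low in every sort. Il1rn and Tnfaip2 in dendritic cells and Tnfaip3 in CD8+ T cells reached that mean through 1 treatment group alone. No member passed an adjusted p of 0.05 in any sort. The share of all tested genes that passed was 0% of 1569 in CD8+ T cells, 0% of 966 in the CD4 sort and 0% of 886 in dendritic cells. At an unadjusted p under 0.05 there were 130, 100 and 61 genes in those sorts, and limma-voom also called 0 in each. Tnfaip2 in dendritic cells and Cxcl2 in the CD4 sort had the lowest unadjusted p of the members, 0.0665 and 0.0581 by limma.

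Nfkbia encodes IkappaB alpha, the inhibitor that binds NF-kappaB in the cytoplasm and is resynthesised on NF-kappaB's own instruction. In CD8+ T cells it had 51.2, 58.8 and 47.1 normalised reads in the anti-PD-1 libraries and 63.6, 65.4 and 85.9 in the D18 libraries. All D18 libraries lay above all anti-PD-1 libraries. Among all tested genes of that sort, 6.88% were higher with D18 without overlap, and Nfkbia was the only one of the 4 tested members to do so. The log2 change was 0.44 ± 0.40 (SE, n = 3 per group; adjusted p = 0.728 by limma), and with the replicate number as a block the adjusted p was 0.406, while the count of called genes went from 0 to 20.

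The CD4 sort had Nfkbia at 21.7, 38.2 and 82.5 normalised reads in the anti-PD-1 libraries and 65.0, 78.8 and 75.6 in the D18 libraries. The groups overlapped through anti-PD-1 replicate 3, the highest of the 6, and no tested member of this sort was higher with D18 without overlap, against 5.28% of its genes. The D18 change (log2) was 0.81 ± 0.57 (adjusted p = 0.610 by limma). Without anti-PD-1 replicates 1 and 2, which had at most 1 Cd3e read and are also the libraries of that sort without those mitochondrial reads, it was −0.18 ± 0.69 (adjusted p = 0.998 by limma). That omission leaves anti-PD-1 replicate 3 alone against 3 D18 libraries, so the error assumes that this lone library varies like the D18 libraries, and the value is no test of anti-PD-1 spread.

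In dendritic cells Nfkbia had 19.1, 40.1 and 32.7 normalised reads in the anti-PD-1 libraries and 119, 9.63 and 73.6 in the D18 libraries. The low D18 value was replicate 2, the library of 11170 reads, in which Nfkbia had 2 reads. The estimate, 0.59 ± 0.97 on the log2 scale, was smaller than its error (adjusted p = 0.783 by limma). It was 1.64 without that library and −0.10 without D18 replicate 1. Omitting the libraries over 50% mitochondrial or under 20000 reads left anti-PD-1 replicates 1 and 3 and D18 replicates 1 and 3, with a change of 1.86 (adjusted p = 0.0510 by limma). The median change of all genes in this sort was −0.65 with the authors' size factors and −0.07 after quantile normalisation, under which the change of Nfkbia was 0.96.

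Averaged over the 3 sorts, the log2 change of Nfkbia was 0.61 ± 0.42 and did not pass (adjusted p = 0.428 by limma). In that comparison 2.89% of 727 tested genes passed, and neither of the tested members, Nfkbia and Cxcl2, did. For Nfkbia limma-voom gave 0.97 ± 0.31 (adjusted p = 0.0474), in a fit that called more genes than the main fit (counts below). Its adjusted p over the other alternatives reached 0.986. With a term for the mt-Co2, mt-Co3 and mt-Atp6 split the average was 0.28. Differences between the sorts in the D18 change of Nfkbia were 0.16 ± 1.02 for dendritic cells against CD8+ T cells and −0.22 ± 1.02 against the CD4 sort, with 0% of the tested genes called in either. Main fits across the sorts treat the 18 libraries as independent. The labels do not say whether libraries of different sorts came from the same mice, so these errors and p-values do not account for shared mice.

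Cxcl2 encodes a chemokine that draws neutrophils through CXCR2 and is a classical NF-kappaB target of macrophages. In the CD4 sort it had 132, 75 and 27 reads in the anti-PD-1 libraries and 12, 2 and 57 in the D18 libraries, or 92.3, 86.7 and 17.5 against 16.9, 3.75 and 32.9 normalised reads. The first pair of anti-PD-1 libraries stood highest, and the third lay within the D18 range. The log2 change was −1.90 ± 0.88 (adjusted p = 0.478 by limma). Without the libraries numbered 3 it was −3.29 ± 0.78 (adjusted p = 0.0452 by limma), and Cxcl2 was 1 of 34 genes called there. The anti-PD-1 libraries left in that fit are the 2 with at most 1 Cd3e read, and both lack the mitochondrial reads named above. Treatment cannot be told apart from either feature in that fit. Over the other alternatives the adjusted p of Cxcl2 ran up to 0.999. Without the 2 libraries with at most 1 Cd3e read, which again leaves 1 anti-PD-1 library, the change was −0.38. Those libraries held 73 and 132 CPM of the 14 T cell markers, against 4727 to 6066 CPM in the other 4, and the part of cell content in the change of Cxcl2 was not tested.

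Among CD8+ T cell libraries Cxcl2 had 29, 37 and 67 reads in the anti-PD-1 libraries and 0, 125 and 27 in the D18 libraries. The empty library, D18 replicate 1, held 55823 reads. It also had the lowest macrophage marker level of the 18, 5428 CPM, most of it from Ly6c2. The log2 change was −1.60 ± 1.41 (adjusted p = 0.726 by limma), and without that library it was 0.23. In dendritic cells the counts were 69, 15 and 89 reads in the anti-PD-1 libraries and 119, 19 and 74 in the D18 libraries. Scaled for depth, the D18 replicate with 19 reads was the highest library of the series at 1701 CPM. The log2 change was 0.68 ± 0.79 (adjusted p = 0.696 by limma), and it was −0.21 without the libraries over 50% mitochondrial or under 20000 reads.

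The D18 change of Cxcl2 was of opposite sign in dendritic cells and in both T cell sorts. The difference itself was 2.28 ± 1.70 against CD8+ T cells (adjusted p = 0.985 by limma) and 2.58 ± 1.70 against the CD4 sort (adjusted p = 0.750). Neither passed, among 816 and 744 genes tested with 0 called. At an unadjusted p under 0.05 there were 7 and 22 genes, and limma-voom called 0 in both. The CD8+ T cell and CD4 sorts differed by 0.31 ± 1.69. Averaged over the sorts, the log2 change of Cxcl2 was −0.94 ± 0.70 (adjusted p = 0.460 by limma).

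**Figure D3:**
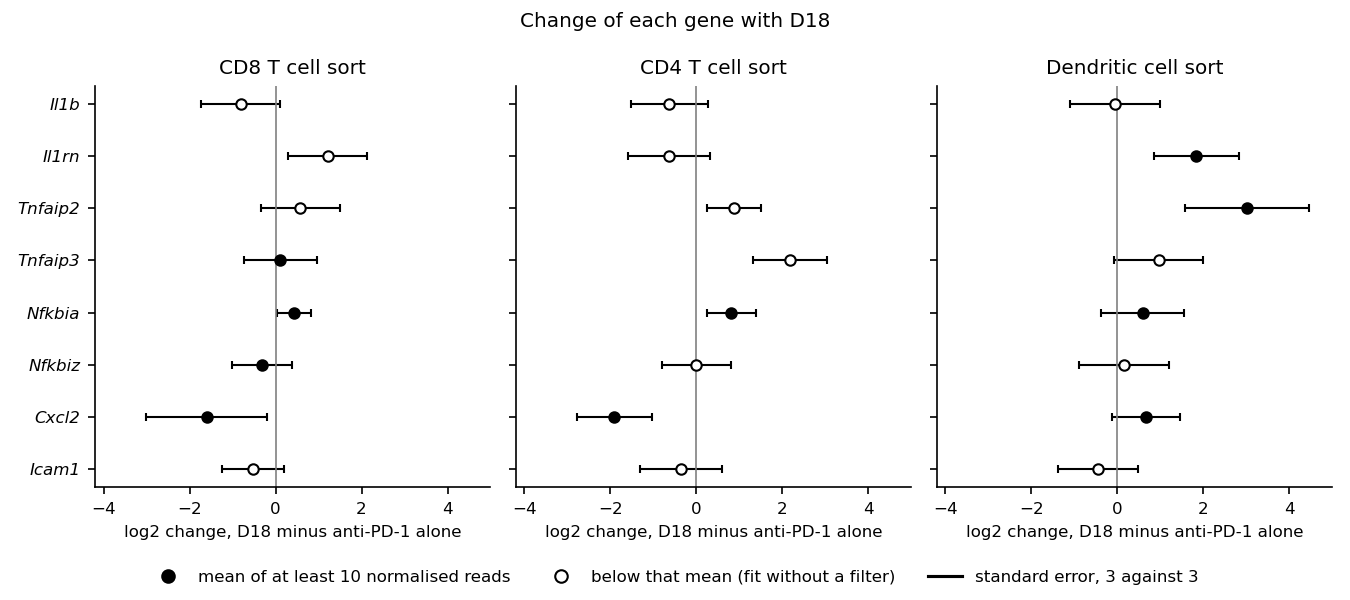
Log2 change of each member with D18 (D18 plus anti-PD-1 minus anti-PD-1 alone) by sort, with standard errors from limma on 3 against 3 libraries; filled points had a mean of at least 10 normalised reads, and open points come from a fit without that filter. Tnfaip2 and Il1rn in dendritic cells lie farthest right among the filled points (3.02 and 1.85), and Cxcl2 in the T cell sorts farthest left (−1.60 and −1.90); no point passed an adjusted p of 0.05.

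Il1rn encodes the interleukin-1 receptor antagonist, a secreted protein that occupies the receptor without signalling. In dendritic cells it had 3, 7 and 8 reads in the anti-PD-1 libraries and 124, 1 and 39 in the D18 libraries. D18 replicates 1 and 3 stood far above the rest, and replicate 2, with its 11170 reads, had 1 read. In normalised reads the values were 3.18, 7.39 and 3.79 against 67.3, 4.81 and 18.6, a log2 change of 1.85 ± 1.00 (adjusted p = 0.551 by limma). Without the libraries over 50% mitochondrial or under 20000 reads, an alternative added after the data had been seen, it was 3.03 ± 0.58 (adjusted p = 0.0317), one of 11 genes called there. Over its other alternatives the adjusted p ran up to 0.998, and the change was 0.95 without D18 replicate 1. Il1rn was tested only because of its D18 level, with means of 4.78 normalised reads under anti-PD-1 and 30.2 under D18. The alternative in which it passed also leaves out the D18 library with 1 read, so that pass is a description. In bulk RNA, more cells of a type and more RNA per cell cannot be told apart.

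The T cell sorts repeated this uneven pattern. CD8+ T cell libraries held Il1rn at 1, 0 and 1 reads in the anti-PD-1 libraries and 0, 1 and 25 in the D18 libraries. The CD4 sort had 5, 7 and 2 reads in the anti-PD-1 libraries and 0, 0 and 41 in the D18 libraries. In both, D18 replicate 3 held the highest count. Il1rn was not tested in either sort because its mean over the 6 libraries was 7.46 normalised reads in CD8+ T cells and 6.09 in the CD4 sort. The 4 libraries above 200 CPM, which are D18 replicate 3 of each sort and D18 replicate 1 of dendritic cells, ran from 230 to 650 CPM, and the highest of the other 14 had 89.5 CPM.

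Markers of other cells moved with those libraries. Cd79a, a component of the B cell receptor, had 5 to 34 reads in the same 4 libraries and 0 in the other 14. Clec9a, a receptor of cross-presenting dendritic cells, had 3 to 9 reads in the 4 and 0 in the other 14. The 14 dendritic cell markers as a whole did not separate them, with 3654 to 4873 CPM in the 4 and 672 to 7936 CPM in the rest. The 6 B cell markers summed to 346 to 881 CPM in the 4 and to 22.5 to 312 CPM in the rest, while Lyz2, a myeloid gene, overlapped between the sets. The libraries were singled out by Il1rn itself, so this is a description, and the part of those cells in the level of Il1rn was not tested.

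**Figure D4:**
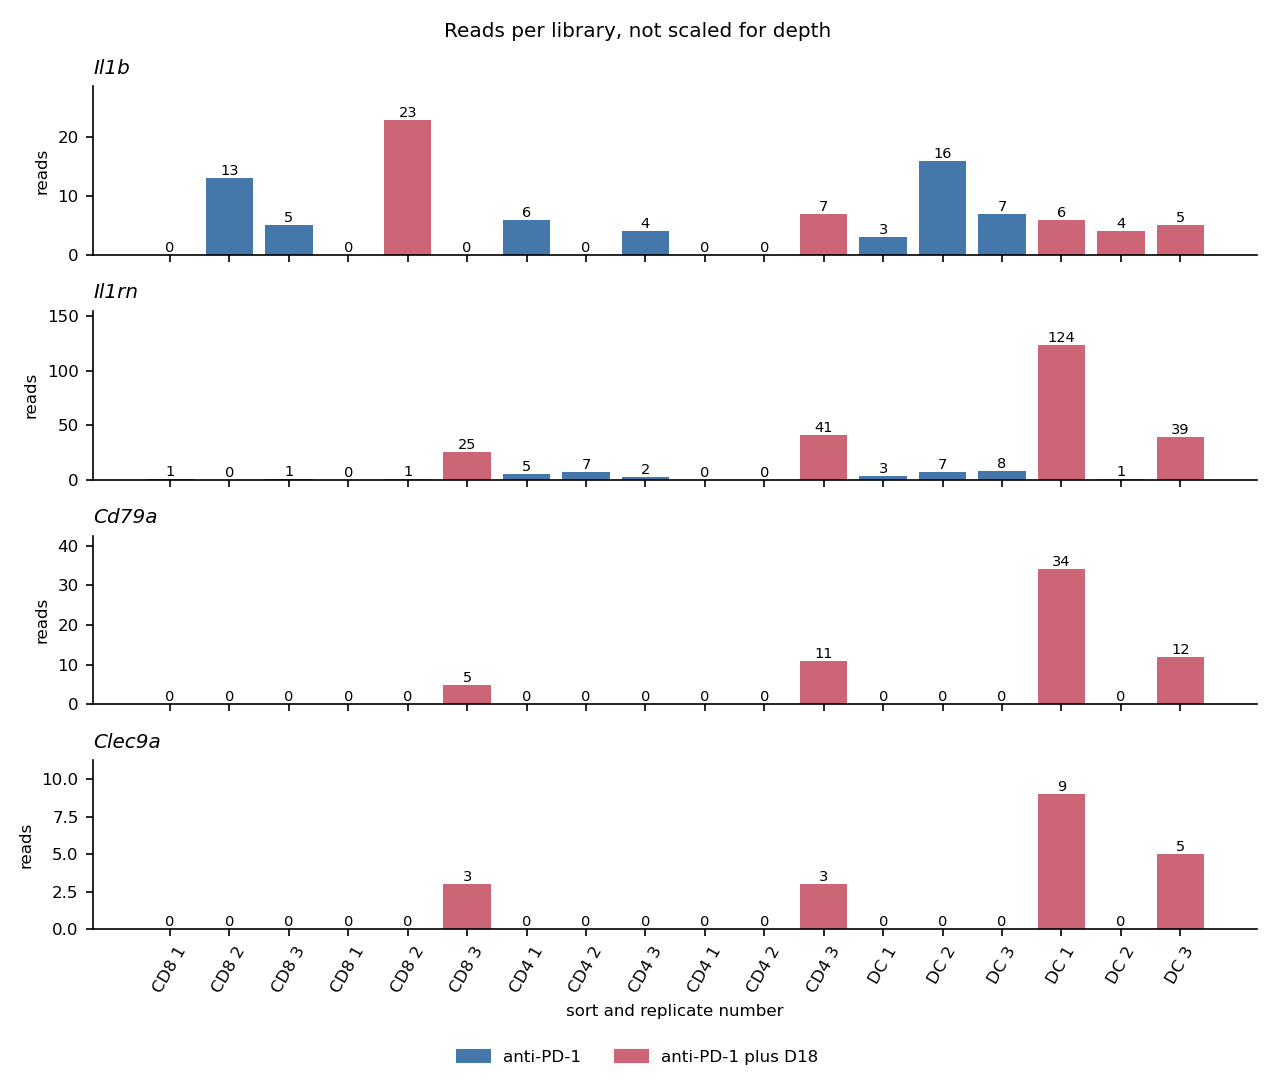
Reads of Il1b, Il1rn, Cd79a and Clec9a in each of the 18 libraries, not scaled for depth, with bar colour for treatment and the count above each bar; panels have separate axes that start at 0. Il1rn, Cd79a and Clec9a are high together in CD8, CD4 and dendritic cell (DC) D18 replicate 3 and in dendritic cell D18 replicate 1, and Il1b is not.

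Il1b encodes the agonist itself. In dendritic cells it had 3, 16 and 7 reads in the anti-PD-1 libraries and 6, 4 and 5 in the D18 libraries. CD8+ T cells had counts of 0, 13 and 5 against 0, 23 and 0, and in the CD4 sort 6, 0 and 4 against 0, 0 and 7. The groups overlapped in all 3 sorts. Unfiltered log2 changes were −0.05 ± 1.05, −0.81 ± 0.92 and −0.63 ± 0.90 in that order, each smaller than its error. Pooled over the 3 libraries of a group, dendritic cells held 18 reads of Il1rn and 26 of Il1b under anti-PD-1, against 164 and 15 under D18. That is 0.692 and 10.9 reads of Il1rn per read of Il1b, a description without a test, and 163 of the 164 reads came from D18 replicates 1 and 3.

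Tnfaip2 is a TNF-induced gene of myeloid and endothelial cells. In dendritic cells it had 3, 0 and 2 reads in the anti-PD-1 libraries and 22, 11 and 11 in the D18 libraries. The D18 libraries lay above the anti-PD-1 libraries without overlap, as did 4.18% of the tested genes of that sort. Tnfaip2 was tested only because of its D18 level, so this separation is a description. In normalised reads the values were 3.18, 0 and 0.947 against 11.9, 52.9 and 5.26, a log2 change of 3.02 ± 1.44 (adjusted p = 0.551 by limma). Its size depended on the pseudocount, with 1.29 at a pseudocount of 10 and 4.43 at 0.1. D18 replicate 2 had the highest level, 985 CPM from 11 reads, and without it and the library over 50% mitochondrial the change was 1.66.

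That library also held 11 of the 14 reads of the neutrophil gene S100a8 in the series, and its 14 neutrophil markers summed to 1522 CPM against 0 to 389 CPM in the other 17. The 1522 CPM were 17 reads, of which S100a8 and S100a9 gave 11 and 5. The neutrophil markers Csf3r, Il1r2 and Trem1 had 0 reads in it. Unscaled counts of these markers were higher in some other libraries, up to 59 reads in CD4 anti-PD-1 replicate 1. The defining neutrophil marker Ly6g had no reads in any library. The part of neutrophils in the level of Tnfaip2 and Cxcl2 in dendritic cell D18 replicate 2 was not tested. For CD8+ T cells Tnfaip2 had 0, 4 and 3 reads in the anti-PD-1 libraries and 0, 10 and 5 in the D18 libraries, and in the CD4 sort its 9 reads all came from D18 replicate 3.

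Tnfaip3 encodes A20, a ubiquitin-editing enzyme that shuts off NF-kappaB signalling. The CD8+ T cell libraries held 14, 11 and 5 reads in the anti-PD-1 libraries and 3, 73 and 3 in the D18 libraries, and the log2 change was 0.11 ± 0.85 (adjusted p = 0.973 by limma). D18 replicate 2, the deepest library, carried most of these reads, and without it the change was −0.57. In the CD4 sort the counts were 2, 0 and 14 against 14, 11 and 7, with an unfiltered change of 2.18 ± 0.87 (adjusted p = 0.642 by limma). The 2 low counts came from anti-PD-1 replicates 1 and 2, the libraries with at most 1 Cd3e read. Anti-PD-1 replicate 3, at 9.09 normalised reads, lay within the D18 range of 4.04 to 20.6. The part of cell content in this change was not tested. In dendritic cells the counts were 2, 3 and 7 against 7, 2 and 15. Scaled, these were 2.12, 3.17 and 3.31 against 3.80, 9.63 and 7.17 normalised reads, too low to test, and the 9.63 rests on 2 reads in the library of 11170 reads. All D18 values lay above all anti-PD-1 values, as was so for 4.18% of the tested genes of that sort, which do not include Tnfaip3.

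Nfkbiz encodes IkappaB zeta, a nuclear protein that helps NF-kappaB induce a second wave of inflammatory genes. CD8+ T cell libraries had 24, 7 and 22 reads in the anti-PD-1 libraries and 6, 37 and 6 in the D18 libraries, with a log2 change of −0.32 ± 0.70 (adjusted p = 0.890 by limma). Leaving out anti-PD-1 replicate 1 gave 0.24. In the CD4 sort the counts were 23, 2 and 16 against 6, 2 and 23, and in dendritic cells 15, 1 and 30 against 7, 2 and 28. The treatments overlapped in both of those sorts.

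Icam1 encodes the adhesion molecule through which leukocytes bind by the integrin LFA-1. The CD8+ T cell sort had 3, 38 and 7 reads in the anti-PD-1 libraries and 1, 35 and 4 in the D18 libraries, so that the replicates numbered 2 were highest in both groups. The CD4 sort had 2, 8 and 3 against 1, 7 and 0 reads, and dendritic cells 3, 0 and 12 against 1, 0 and 13. Unfiltered log2 changes in the 3 sorts were −0.53 ± 0.71, −0.36 ± 0.95 and −0.44 ± 0.93, and all groups overlapped.

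The genes that sense interleukin-1 were low at this depth. Il1r1, the signalling receptor, had no reads in any library, whereas Il1r2, the decoy receptor that neutrophils and some other leukocytes carry, had 139 reads over 13 libraries. Both were picked out after their values had been seen. Of the 10 interleukin-1 family ligands, 5 had no read in the series, and Il1rn in dendritic cells was the 1 tested. Of 16 receptor and adaptor genes, Il18bp, a soluble inhibitor of interleukin-18, was the 1 tested, in dendritic cells (0.82 ± 0.70). Of 10 inflammasome genes, Gsdmd, which encodes the pore through which interleukin-1 beta leaves the cell, was tested in both T cell sorts, with changes of −0.31 ± 0.56 in CD8+ T cells and 0.65 ± 0.66 in the CD4 sort. None of these passed.

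The NF-kappaB machinery was measured best in CD8+ T cells. Of 13 subunit and kinase genes, 3 were tested there and 0 passed by limma. Nfkb1, the p50 precursor, had 7, 7 and 7 reads in the anti-PD-1 libraries and 5, 83 and 12 in the D18 libraries (1.34 ± 0.57, adjusted p = 0.599). Log2 changes were 1.61 ± 0.65 for Tab2, an adaptor of the TAK1 kinase, and −0.22 ± 0.70 for Rela, the p65 subunit. Of 12 inhibitor and feedback genes 4 were tested, among them Nfkbib with 0.54 ± 0.64, and 0 passed. The reads of Nfkb1 lay mostly in D18 replicate 2, the deepest library.

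Among 32 other NF-kappaB target genes, which include Cxcl2, Icam1 and Tnfaip2, 14 were tested in CD8+ T cells, 11 in the CD4 sort and 9 in dendritic cells, and 0 passed within a sort. Of the tested genes 10, 7 and 6 were higher with D18, with median log2 changes of 0.72, 0.54 and 0.68, against medians of −0.03, 0.03 and −0.65 for all tested genes. The dendritic cell median is the value of Cxcl2 itself, and Tnfaip2 was tested there only because of its D18 level. Averaged over the sorts, 4 of 8 tested targets were higher and 4 lower, with a median of 0.007 against −0.24. CPM scaling moved the median of all genes in the CD4 sort to 0.58, and that in dendritic cells depended on scaling as given above. Log2 changes of the chemokine genes Ccl2 and Ccl3 were −0.86 ± 1.26 and −0.65 ± 1.33 in CD8+ T cells and −0.80 ± 1.58 and −0.49 ± 0.72 in dendritic cells. The changes in the CD4 sort were 0.54 ± 0.55 and −1.38 ± 0.88. For Junb, an AP-1 subunit, they were 0.31 ± 0.53, 0.74 ± 0.61 and −0.51 ± 0.89 in CD8+ T cells, the CD4 sort and dendritic cells.

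Gadd45b, a stress-response gene that NF-kappaB induces, was the 1 of 8 tested targets to pass in the average over the sorts, and it rose. It was singled out after its values had been seen. It had 8, 20 and 11 reads in the anti-PD-1 libraries and 34, 73 and 22 in the D18 libraries in CD8+ T cells, 19, 6 and 35 against 39, 15 and 34 in the CD4 sort, and 2, 1 and 21 against 24, 4 and 50 in dendritic cells. Its average log2 change was 1.73 ± 0.37 (adjusted p = 0.0234 by limma), and by sort the change was 1.76 ± 0.43, 1.22 ± 0.63 and 2.22 ± 0.98. The averaged error and adjusted p treat libraries of different sorts as independent, although they may share mice. The call was lost with the term for the mitochondrial split (1.01, adjusted p = 0.711 by limma) and without the CD4 libraries with at most 1 Cd3e read (1.47, adjusted p = 0.282), where 1 anti-PD-1 library remains in the CD4 sort. It was also lost with CPM scaling (adjusted p = 0.0546 by limma), a pseudocount of 0.1 (0.0617) and without libraries over 50% mitochondrial or under 20000 reads (0.0803). Leaving out any 1 of CD8 anti-PD-1 replicate 3, CD8 D18 replicate 1, CD4 anti-PD-1 replicate 1, CD4 D18 replicate 1 or dendritic cell anti-PD-1 replicate 2 gave adjusted p from 0.0524 to 0.0664 by limma. The direction was the same in all alternatives run.

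Genes known to respond to tissue dissociation did not pass. In the average over the sorts 6 of 13 were tested, of which 5 were lower with D18, with a median of −0.66 against −0.24 for all tested genes. The log2 change of Fos was −1.39 ± 0.47 (adjusted p = 0.0859 by limma), that of Dusp1 −1.30 ± 0.36 (adjusted p = 0.0550) and that of Hspa8 −0.37 ± 0.32. Monocyte and macrophage markers were lower with D18 in 12 of 14 tested genes in CD8+ T cells, 13 of 14 in the CD4 sort and 12 of 13 in dendritic cells. Medians were −2.19, −1.32 and −1.31, and 0 passed within a sort. Among all tested genes 811 of 1569, 468 of 966 and 612 of 886 were lower, with medians of −0.03, 0.03 and −0.65. The markers that were higher in CD8+ T cells were Ly6c2 and Ccr2. In the average over the sorts 2 of 13 passed, both lower, against 2.89% of 727 tested genes. The summed marker level in CD8+ T cells ran from 22545 to 36650 CPM with anti-PD-1 and from 5428 to 24502 CPM with D18. The ranges were 18681 to 43569 and 8319 to 26416 in the CD4 sort. In dendritic cells they were 18705 to 44167 and 12713 to 28551. The 18705 CPM belong to anti-PD-1 replicate 2, of whose reads 71.9% were mitochondrial. The part of macrophage content in the changes of the members was not tested.

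Likeness across libraries placed the 2 members measured in every sort apart. Over 18 libraries and 726 other genes, Nfkbia was most like AW112010 (Pearson r = 0.85 of log2(CPM + 10)), followed by Igtp (0.85), S100a10 (0.83), Il7r (0.82) and Actg1 (0.80). Cxcl2 was most like the macrophage gene Aif1 (0.86), and also like Plin2 (0.82), Cxcl16 (0.81) and Cybb (0.80). Between Nfkbia and Cxcl2 themselves r was −0.29. These values mix differences between sorts, treatments, library depth and mitochondrial share and are descriptions.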

How the data were processed

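Per the labels' protocols, cells were sorted into lysis buffer and libraries followed Smart-Seq2, which keeps no strand. Per the submitters' processing notes, the authors used STAR 2.4.0, HTSeq 0.6.1 and DESeq2 with mm10. The authors deposited 1 table of log2 values per sort (variance-stabilised, normalised separately). Inverting the transform gave whole reads for 100% of values (tolerance 0.001) and the authors' size factors. CPM use these reads; CPM per kb use GENCODE exon length. D18 changes come from limma 3.58.1 (R 4.3.3; trend, robust), pseudocount 1, Benjamini-Hochberg over all tested genes; genes needed a mean of at least 10 in every sort of a comparison. The main fits used the log2 scale, the deposited unit. No count model was fitted, although whole reads were recovered, and limma-voom on those reads was an alternative. Levels between sorts were compared without a test. Same-numbered CD8 libraries deviated together (r = 0.36, 0.51 and 0.56), so the blocked fit is given there. The script was tested on simulated data. Members, lists and tests were chosen with earlier results of these data known. Named genes are the members and, per list, genes that passed in a sort, otherwise the 3 most abundant tested in dendritic cells; others are marked. One gene that the likeness rule names for Cxcl2 is not reported here. Alternatives comprised pseudocounts, filters, scaling, the deposited values, limma-voom, the replicate block, a term for the mitochondrial split and omitted libraries. Python 3.11.15, pandas 2.3.3 and matplotlib 3.10.9 made the summaries.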

Additional observations from a re-analysis of the deposited data

How the results depend on the processing

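Depth limits these results: in the shallowest library 3 reads are 269 CPM. Of 410 alternative values for 18 results on members, 372 kept their direction and side of the threshold, 35 turned in sign and 3 newly passed (Il1rn in dendritic cells, Cxcl2 in the CD4 sort, averaged Nfkbia, given above). Where no cause is named, the cause was not tested.

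Counts of called genes moved as follows. In CD8+ T cells (0 called) there were 22 without a filter, 1 on the deposited log2 values, 20 with the replicate block and 0 to 2 with 1 library left out. In the CD4 sort (0) there were 29 without a filter, 34 without the libraries numbered 3 and 0 to 19 with 1 library left out, the 19 without anti-PD-1 replicate 3. In the fits with 34 and 19, the anti-PD-1 libraries are only those poor in Cd3e. In dendritic cells (0) there was 1 after quantile normalisation and 11 without libraries over 50% mitochondrial or under 20000 reads. The average over sorts (21) gave 5 and 76 at pseudocounts of 0.1 and 10, 168 without a filter, 7 at a mean of at least 50, 0 with CPM scaling, 65 with quantile normalisation, 49 on the deposited values, 108 by limma-voom, 34 with the replicate block, 0 with the mitochondrial term, 2 without libraries over 50% mitochondrial or under 20000 reads, 0 without the CD4 libraries poor in Cd3e (1 anti-PD-1 library left there) and 0 to 62 with 1 library left out. For dendritic cells against the CD4 sort (0) it was 1 without the libraries numbered 3. The block called 0 genes in the CD4 sort and in dendritic cells, where same-numbered libraries did not deviate together (r from −0.20 to 0.15 and from −0.09 to 0.14), and changed no call of a member.

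Signs turned as follows. Nfkbiz in CD8+ T cells was 0.017 without the libraries numbered 3. Nfkbia in the CD4 sort was −0.18 with the mitochondrial term and without the CD4 libraries poor in Cd3e. Cxcl2 in dendritic cells was −0.21 without libraries over 50% mitochondrial or under 20000 reads. For Nfkbia, dendritic cells against CD8+ T cells gave −0.14 with the mitochondrial term. Against the CD4 sort it gave 0.13 with quantile normalisation, 0.29 by limma-voom, 0.62 with the mitochondrial term, 1.10 without libraries over 50% mitochondrial or under 20000 reads and 0.77 without the libraries poor in Cd3e. CD8+ T cells against the CD4 sort gave 0.76 and 0.61 for Nfkbia with that term and that omission. For Cxcl2 this contrast was −0.68 at a pseudocount of 0.1, −0.13 with CPM scaling, −1.99 with the mitochondrial term, −0.053 without libraries over 50% mitochondrial or under 20000 reads and −1.22 without the libraries poor in Cd3e.

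With 1 library left out, ranges that crossed 0 in CD8+ T cells were −0.57 to 0.66 for Tnfaip3, −1.15 to 0.24 for Nfkbiz and −2.54 to 0.23 for Cxcl2. In dendritic cells that of Nfkbia was −0.10 to 1.64. For Nfkbia the contrasts ran from −0.54 to 1.21 (dendritic cells against CD8+ T cells), from −0.92 to 0.83 (dendritic cells against the CD4 sort) and from −0.87 to 0.067 (CD8+ T cells against the CD4 sort), and for Cxcl2 the last ran from −0.63 to 2.14.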
